A study of Mus musculus with 8 samples.

Results

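The genes described here carry out the uptake, activation, synthesis, storage, oxidation and efflux of fatty acids and sterols. They were chosen by a list of 32 gene symbols, of which 31 were analysed out of 22549 genes in the table, and 1 was not analysed here. They were followed in skin iNKT cells and in spleen iNKT cells. Invariant natural killer T (iNKT) cells are T cells whose semi-invariant receptor recognises lipids on CD1d. RNA sequencing of 4 skin libraries and 4 spleen libraries was compared to set the skin transcriptome against that of the spleen. All mice, those that gave the spleen cells included, carried the genotype CCR10+/EGFP, with an EGFP reporter at 1 of the alleles of Ccr10. The sources used here do not give the age or sex of the mice, the gate used for the cells or any pooling. The labels number the libraries without naming separate animals, so the p-values measure the spread between libraries, which may be technical.

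Fatty acids enter a cell through surface proteins such as CD36, are carried by fatty acid binding proteins and are activated to acyl-CoA by the ACSL enzymes. Acyl-CoA is then stored as triglyceride, built into membranes or oxidised in mitochondria. Sterol supply is sensed in the endoplasmic reticulum by SCAP and INSIG, which control the release of the SREBP transcription factors. SREBP2 acts mainly on genes of cholesterol synthesis and SREBP1 mainly on genes of fatty acid synthesis, while LXR receptors drive cholesterol efflux. In mouse skin, resident memory CD8 T cells are known to take up fatty acids with the help of Fabp4 and Fabp5.

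None of the 18 lipid genes that could be tested passed the test between the tissues, in either direction. The nearest to it were Dgat1, Apoe and Acsl4, with higher means in skin. In 5 genes, Fabp5, Acsl3, Acsl4, Srebf2 and Dgat1, every skin library stood above every spleen library, and in 1, Abca1, every skin library stood below. Over all genes in the table, skin stood wholly above spleen in 1.9% and wholly below in 4.45%. Over all genes tested the shares were 6.11% and 13.4%. The lipid genes were chosen with earlier results of these data known. No count was found in any library for Cd36, Fabp4, Pparg, Ppara or Ppargc1a. Outside the 31, 77 other lipid genes were tested. The elongase Elovl5 and the sterol desaturase Sc5d passed as higher in skin, and the SREBP escort Scap and the mitochondrial enzyme Mcat as lower. Over all genes tested, 1.85% passed as higher and 3.58% as lower. Sc5d, Scap and Mcat passed in 0 of the 8 fits without 1 library, and Elovl5 in 4.

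Levels are given in CPM, expected counts scaled to a common library size, for each library or as a mean ± SD (n = 4 in each tissue). Log2 fold changes are of skin over spleen. The SE given with them was worked back from the test, as the size of the change divided by the square root of edgeR's F statistic. It is not an error that edgeR estimated, and it is only approximate for genes with many zeros. A call is an adjusted p under 0.05 by edgeR's quasi-likelihood test with Benjamini-Hochberg adjustment over all 6920 genes tested. Library totals ran from 7221498 to 9791973 expected counts in skin and from 7191131 to 9361237 in spleen. A count was found for 5302 to 6012 genes in a skin library and for 6415 to 10094 genes in a spleen library. The means were 5643 ± 393 and 8024 ± 1690 genes (n = 4 each; exact permutation test, two-sided, p = 0.0286, which is the lowest value this design allows). All 11 T and iNKT cell markers had counts in both tissues, and their summed level was 4650 to 5971 CPM in skin and 5728 to 8194 CPM in spleen. Of the 11, Cd3d was called lower in skin (470 ± 83.9 and 1112 ± 226 CPM, n = 4 each; edgeR adjusted p = 0.025), and Cd3d, Cd3g and Lat stood wholly below spleen. Ccr10 itself averaged 20.5 ± 23.7 CPM in skin libraries and 19.6 ± 17.3 CPM in spleen libraries, and its RNA does not check a reporter allele. In bulk libraries, fewer cells that express a gene and less RNA per cell cannot be told apart.

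Many values were either 0 or well above 20 CPM, which touches most of the lipid genes. Among all genes whose mean in the other 3 libraries of the tissue was 20 to 40 CPM, 52.1% of skin values and 28.4% of spleen values were 0. At 60 to 100 CPM the shares were 31% in skin and 12.9% in spleen, and at 150 to 250 CPM they were 9.77% and 3.13%. A single 0 was therefore common at the levels of these genes, more so in skin. Of the 31 genes, 16, 13, 19 and 18 had a count in skin replicates 1 to 4, against 11, 15, 20 and 22 in spleen replicates 1 to 4 (16.5 ± 2.65 and 17 ± 4.97, n = 4 each; exact permutation test, two-sided, p = 0.943). Spleen replicate 1 held the fewest and spleen replicate 4 the most.

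**Figure D1:**
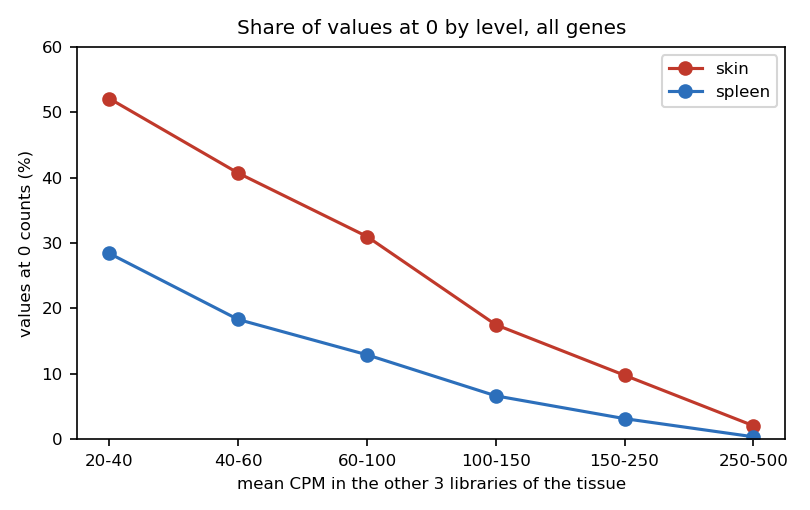
Share of values at 0 counts (y axis, %) against the mean CPM of the same gene in the other 3 libraries of the tissue (x axis, ranges of CPM), over all genes, for skin (red) and spleen (blue). The share fell with level in both tissues and was higher in skin throughout, at 52.1% in skin and 28.4% in spleen for genes at 20 to 40 CPM.

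Of the 31 genes, 5 had no count, 8 more did not pass the filter on low counts and 18 were tested. Among the 18, edgeR called 0 higher and 0 lower, where 1.85% of all genes tested were called higher in skin and 3.58% lower, 5.43% in all. At an unadjusted p under 0.05 by edgeR there were 3 higher and 0 lower of the 18, against 353 higher and 507 lower of all 6920 genes tested. DESeq2 called Acsl4, Apoe and Dgat1 higher and limma-voom called Acsl3 and Acsl4 higher, and neither called any lower. Over all genes, DESeq2 called 4.38% higher and 6.64% lower and limma-voom 2.99% higher and 7.23% lower. Skin stood wholly above spleen in 5 of the 31 and wholly below in 1, where 1.9% and 4.45% of all genes in the table did so. Among the 18 tested, 5 stood wholly above and 0 wholly below, where 6.11% and 13.4% of all genes tested did. The fitted log2 fold change was above 0 for 14 of the 18 and below 0 for 4, with a median of 1.47. Over all 6920 genes tested it was above 0 for 2920 and below 0 for 4000, with a median of -0.29. A gene high in 1 tissue alone could pass the filter through that tissue, so these figures only describe the genes that passed.

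**Figure D2:**
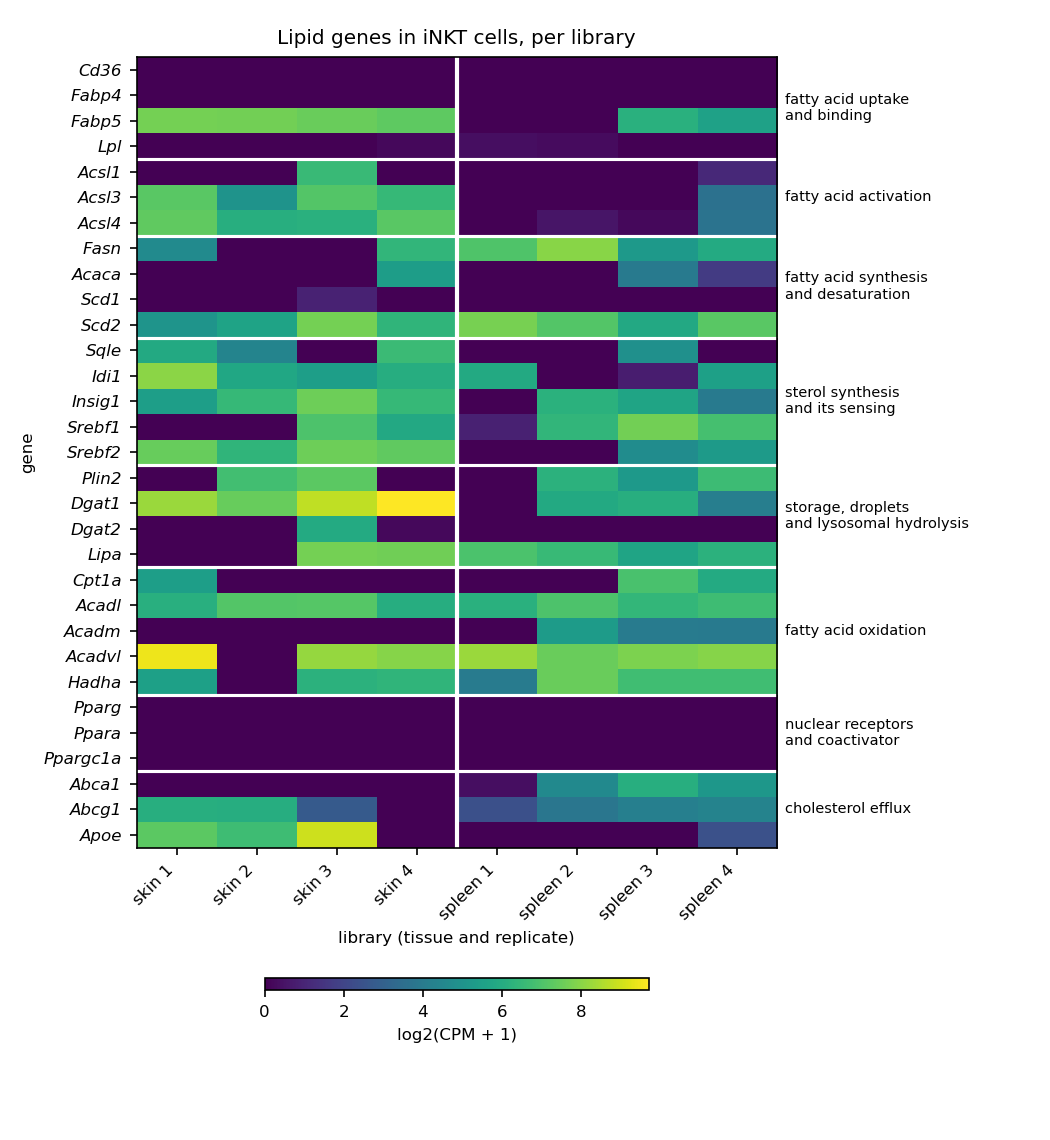
Levels of the 31 lipid genes (rows, grouped by role) in the 4 skin and 4 spleen libraries (columns), as log2(CPM + 1) on the color scale, where the darkest color is 0. Fabp5, Acsl3, Acsl4, Srebf2 and Dgat1 are above 0 in every skin library, each with its lowest skin value above its own highest spleen value, and 5 rows are dark throughout.

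The SREBP arm is shown first at its DNA, since Srebf2 did not overlap between the tissues and Sc5d and Elovl5 were called. These genes were picked for higher levels in skin in these same data, and Scap, called lower, is not shown. The stretches below are the 250 bases before the annotated start of each gene in RefSeq (build GRCm38.p6), on the strand of the gene and written 5′ to 3′. The authors' processing notes name another build, and nothing measured here is placed on these coordinates. Capitals mark matches, on either strand, to the sterol regulatory element SRE-1 (searched by its core, CACCCCA) and to the CCAAT box bound by NF-Y. The Srebf2 stretch lies on chromosome 15 at chr15:82147019-82147268 on the plus strand, that of Sc5d on chromosome 9 at chr9:42264301-42264550 on the minus strand, and that of Elovl5 at chr9:77917115-77917364 on the plus strand.
Srebf2: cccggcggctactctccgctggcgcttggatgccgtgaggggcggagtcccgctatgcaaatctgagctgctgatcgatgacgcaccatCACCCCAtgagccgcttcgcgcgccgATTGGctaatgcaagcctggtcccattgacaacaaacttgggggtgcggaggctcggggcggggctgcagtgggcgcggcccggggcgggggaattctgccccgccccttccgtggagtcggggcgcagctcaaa
Sc5d: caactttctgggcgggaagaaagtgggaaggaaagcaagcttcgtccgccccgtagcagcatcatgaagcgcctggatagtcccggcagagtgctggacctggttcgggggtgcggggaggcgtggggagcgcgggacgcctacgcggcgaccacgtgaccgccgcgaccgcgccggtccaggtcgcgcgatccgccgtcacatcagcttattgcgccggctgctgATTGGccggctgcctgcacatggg
Elovl5: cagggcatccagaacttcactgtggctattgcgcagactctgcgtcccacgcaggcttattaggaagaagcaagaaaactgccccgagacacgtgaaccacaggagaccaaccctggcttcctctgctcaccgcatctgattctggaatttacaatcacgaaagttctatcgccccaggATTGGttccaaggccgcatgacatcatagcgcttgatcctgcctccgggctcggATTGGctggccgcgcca
The Srebf2 stretch held 1 match to the SRE-1 core, beginning 161 bases before the start, and 1 CCAAT match downstream of it, on the other strand. Those of Sc5d and Elovl5 held no SRE-1 match, with 1 CCAAT match for Sc5d and 2 for Elovl5. Across 32851 such stretches in RefSeq, 6.68% held an SRE-1 match, 33.8% a CCAAT match and 2.04% both. Stretches were at hand for 22 of the 31 genes. Of their 29 stretches, 3 (10.3%) held an SRE-1 match, for Acsl1, Apoe and Srebf2. A CCAAT match was held by 14 (48.3%), for 12 genes. Both were held by 2 (6.9%), for Acsl1 and Srebf2. The list of cholesterol synthesis enzymes that holds Sc5d had 17 stretches, for 14 genes. Among them 1 (5.88%) held an SRE-1 match, for Acat2, 13 (76.5%) a CCAAT match and 0 both. The matches are letters in a window and not measured sites.

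Among the genes of uptake and binding, Fabp5 was the one with more than a few counts. Fabp5, the epidermal fatty acid binding protein, stood at 202, 197, 179 and 158 CPM in skin replicates 1 to 4, against 0, 0, 70.8 and 45.9 CPM in spleen replicates 1 to 4. All 4 skin values lay close together and above all spleen values, and spleen replicates 1 and 2 had no count. The means were 184 ± 20.2 and 29.2 ± 35.2 CPM (log2 fold change 2.66 ± 2.04, SE), and the difference did not pass (edgeR adjusted p = 0.889). Fabp5 is also abundant in keratinocytes. Of 15 keratinocyte markers, 12 had a count in skin and 3 in spleen. Their summed level was 1117, 334, 1293 and 273 CPM in skin replicates 1 to 4 and at most 29.5 CPM in a spleen library, with Trp63 and Dsp at 0 in every library. Perp, a desmosome-associated protein, was at 75.97 to 198 CPM in skin and 0 in spleen and was called higher (at least 407-fold in these counts; edgeR adjusted p = 0.0328). Sfn, an epithelial adaptor protein, stood at 35.4 to 165 CPM in skin and at most 1.34 CPM in spleen, without overlap and not called (edgeR adjusted p = 0.112). The part of keratinocyte RNA in the Fabp5 level was not tested. Fabp4, the fatty acid binding protein of fat cells and macrophages, and the fatty acid receptor Cd36 had no count in any of the 8 libraries, where 3 counts correspond to 0.292 to 0.454 CPM. Lpl, the lipase that frees fatty acids from lipoproteins, had at most 3 counts in a library. All 9 adipocyte markers were at 0 in every skin library.

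Among the acyl-CoA synthetases, Acsl3 and Acsl4 had counts in every skin library and little in spleen. Acsl3, which sits on the endoplasmic reticulum and on lipid droplets, stood at 149, 30.7, 138 and 90.1 CPM in skin, against 0, 0, 0 and 11.3 CPM in spleen. Acsl4, which prefers polyunsaturated fatty acids such as arachidonic acid, stood at 160, 67.5, 71.2 and 148 CPM in skin, against 0, 0.456, 0.143 and 11.9 CPM in spleen. For both, spleen replicate 4, the library with the most genes detected, held nearly all of the spleen counts. The means were 102 ± 54.0 and 2.82 ± 5.65 CPM for Acsl3 (log2 fold change 5.17 ± 2.68, SE, with an adjusted p of 0.556 by edgeR). For Acsl4 they were 112 ± 49.3 and 3.12 ± 5.85 CPM (log2 fold change 5.16 ± 2.21, SE, with an adjusted p of 0.373 by edgeR). Neither was called by edgeR. Without spleen replicate 4 the fitted log2 fold changes were 12.71 and 9.03, still not called (edgeR adjusted p = 0.127 for each). With DESeq2, Acsl4 was called (adjusted p = 0.0101) and Acsl3 was not. With limma-voom both were called (adjusted p = 0.0467 for Acsl3 and 0.0349 for Acsl4). Acsl1, the synthetase of fat and liver, had 94.8 CPM in skin replicate 3 and 0 in the other skin libraries, against 1.19 CPM in spleen replicate 4 and 0 in the other spleen libraries.

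Among the genes of fatty acid synthesis and desaturation none stood apart between the tissues. Fasn, the fatty acid synthase, stood at 24.2, 0, 0 and 83.9 CPM in skin, against 129, 249, 36.3 and 60.4 CPM in spleen. It had a count in all 4 spleen libraries and in 2 of 4 skin libraries, and the ranges overlapped (27.0 ± 39.6 and 119 ± 95.3 CPM; log2 fold change -2.13 ± 2.22, SE, with an adjusted p of 0.996 by edgeR). Scd2, the stearoyl-CoA desaturase isoform found in lymphocytes and brain, was detected in all 8 libraries, at 31.2, 48.9, 206 and 80.6 CPM in skin, against 210, 138, 57.7 and 149 CPM in spleen. Its skin and spleen values overlapped (log2 fold change -0.60 ± 0.88, SE, with an adjusted p of 0.998 by edgeR). Scd1, the isoform of liver, fat and sebaceous gland, had 0.908 CPM in skin replicate 3 and no count elsewhere. Acaca, the acetyl-CoA carboxylase that makes malonyl-CoA, stood at 41.5 CPM in skin replicate 4 and 0 in the other skin libraries, against 14.5 and 2.23 CPM in spleen replicates 3 and 4 and 0 in the others.

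In the sterol branch the means of 4 genes were higher in skin and that of Srebf1 was lower. Srebf2, which encodes SREBP2, stood at 173, 81.8, 190 and 161 CPM in skin, against 0, 0, 25.1 and 38.6 CPM in spleen. The lowest skin value was above the highest spleen value, and spleen replicates 1 and 2 had no count, as for Fabp5. The means were 151 ± 47.8 and 15.9 ± 19.2 CPM (log2 fold change 3.25 ± 2.13, SE, with an adjusted p of 0.776 by edgeR), and it was called by none of the alternative fits. Insig1, the sterol sensor that holds SCAP in the endoplasmic reticulum, stood at 42.1, 90.2, 190 and 89.4 CPM in skin, against 0, 72.9, 50.03 and 14.9 CPM in spleen. Idi1, an isomerase of isoprenoid synthesis, stood at 260, 54.6, 42.1 and 65.5 CPM in skin, against 59.0, 0, 0.713 and 44.5 CPM in spleen. Sqle, the squalene epoxidase, stood at 59.0, 19.8, 0 and 96.3 CPM in skin, against 0, 0, 28.4 and 0 CPM in spleen. These 3 overlapped between the tissues, and their fitted log2 fold changes were 1.58 ± 1.75, 2.02 ± 1.97 and 2.62 ± 2.98 (SE), each smaller than or close to its error (edgeR adjusted p = 0.998, 0.986 and 0.998). The value for Idi1 was 1.02 without skin replicate 1, and that for Sqle was 11.49 without spleen replicate 3, the spleen library that held its counts, which leaves spleen at 0. Srebf1, which encodes SREBP1, stood at 0, 0, 126 and 56.6 CPM in skin, against 0.877, 83.4, 198 and 115 CPM in spleen, with overlap (log2 fold change -1.12 ± 2.35, SE, with an adjusted p of 0.998 by edgeR).

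For storage, Dgat1 had the highest mean of its group in skin. Dgat1, which completes triglyceride synthesis, stood at 301, 174, 440 and 836 CPM in skin, against 0, 57.8, 66.3 and 16.8 CPM in spleen. Each skin library held more than 2 times the level of any spleen library, and skin replicate 4 was highest. The means were 438 ± 287 and 35.2 ± 31.9 CPM, a 12.4-fold difference (log2 fold change 3.64 ± 1.48, SE) that edgeR did not call (adjusted p = 0.322) and DESeq2 did (adjusted p = 0.0441). Dgat2, the unrelated enzyme with the same reaction, had 60.3 CPM in skin replicate 3, a single count in skin replicate 4 and none elsewhere. Plin2, a coat protein of lipid droplets, stood at 0, 108, 154 and 0 CPM in skin, against 0, 74.1, 36.8 and 99.1 CPM in spleen. Lipa, the lysosomal acid lipase, stood at 0, 0, 203 and 193 CPM in skin, against 124, 92.1, 49.5 and 75.2 CPM in spleen. For both, 2 skin libraries were at 0 and 2 stood above all spleen libraries; the skin zeros lay below every spleen value for Lipa, while for Plin2 spleen replicate 1 was also at 0. Neither was called (edgeR adjusted p = 0.998 for each).

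**Figure D3:**
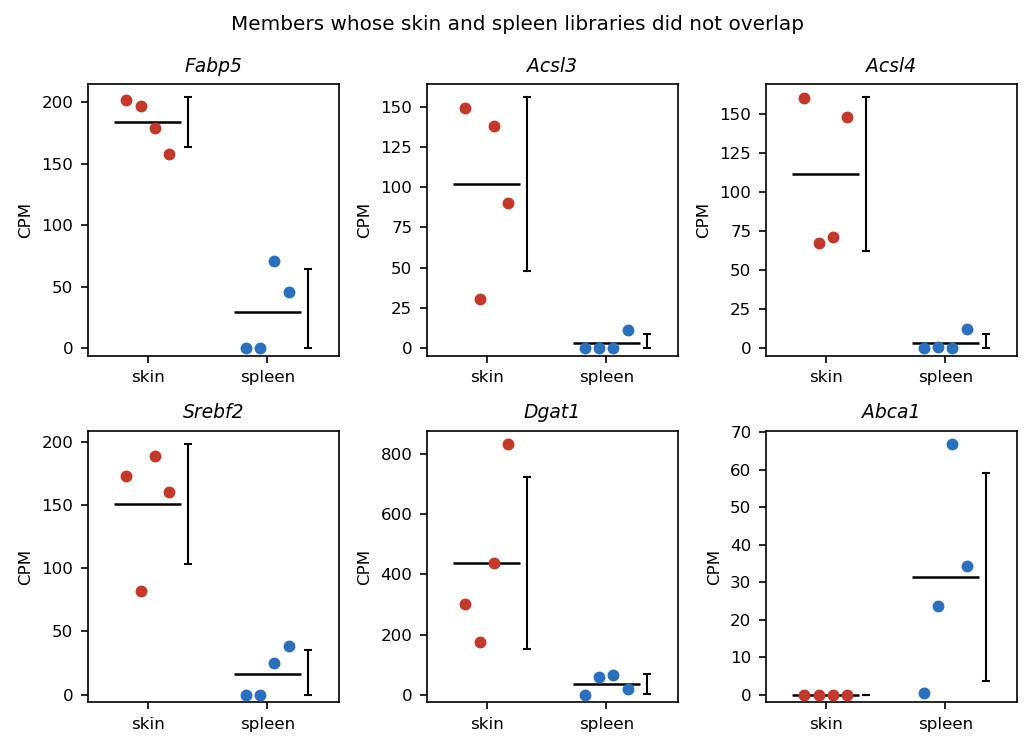
CPM (y axis, linear, from 0) of the 6 lipid genes whose skin (red, left) and spleen (blue, right) libraries did not overlap, with 1 point per library, the mean as a line and the SD as a bar beside it, drawn down to 0 where it would pass below. Dgat1 ranged from 174 to 836 CPM in skin and from 0 to 66.3 CPM in spleen, and Abca1 was at 0 in all 4 skin libraries.

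The genes of fatty acid oxidation overlapped between the tissues. Acadl, the long-chain acyl-CoA dehydrogenase, was detected in all 8 libraries, at 68.9, 136, 142 and 65.7 CPM in skin, against 70.8, 128, 85.8 and 104 CPM in spleen. Its means were 103 ± 41.4 and 97.2 ± 24.8 CPM (log2 fold change 0.08 ± 0.83, SE, with an adjusted p of 0.998 by edgeR), and the sign of this difference turned when single libraries were left out. Acadvl, the very long-chain enzyme of the mitochondrial membrane, stood at 710, 0, 290 and 247 CPM in skin, against 304, 181, 221 and 248 CPM in spleen. Hadha, the alpha subunit of the mitochondrial trifunctional protein, stood at 44.96, 0, 74.2 and 81.8 CPM in skin, against 15.3, 179, 105 and 106 CPM in spleen. Skin replicate 2 was at 0 for both and held the fewest counted lipid genes of the skin libraries. Neither was called (edgeR adjusted p = 0.998 for each). Acadm, the medium-chain enzyme, was at 0 in all skin libraries, against 0, 38.8, 15.2 and 14.6 CPM in spleen. Cpt1a, which passes long-chain acyl groups into mitochondria, stood at 42.7 CPM in skin replicate 1 and 0 in the other skin libraries, against 120 and 59.9 CPM in spleen replicates 3 and 4 and 0 in the others. Neither passed the filter, and both lay at levels where a single 0 was common. The shares of zeros are for a single library and do not give the rate of zeros in every skin library, as seen for Acadm. The nuclear receptors Pparg and Ppara and the coactivator Ppargc1a, which drive genes of fatty acid storage and oxidation in other tissues, had no count in any library.

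Among the genes of cholesterol efflux, Abca1 had its counts in spleen and Apoe nearly all of its counts in skin, and Abcg1 overlapped. Abca1, the pump that loads cholesterol onto apolipoproteins, was at 0 in all 4 skin libraries, against 0.292, 23.6, 67.0 and 34.3 CPM in spleen. Against a floor of 3 counts per library the skin level was at least 80.9-fold lower in these counts, but it did not pass the filter and was not tested, and the lowest spleen value rested on 3 counts. At 20 to 40 CPM a 0 in a single skin library was common, but those shares do not give the rate of zeros in every skin library. Abcg1, its partner in efflux, stood at 66.3, 66.0, 5.79 and 0 CPM in skin, against 4.19, 13.2, 17.2 and 19.2 CPM in spleen, with overlap (edgeR adjusted p = 0.998). Apoe, the apolipoprotein that accepts cholesterol and is made by macrophages and several skin cells, stood at 152, 102, 498 and 0 CPM in skin, against 0, 0, 0 and 4.31 CPM in spleen. The tissues overlapped through skin replicate 4, the skin library at 0 (188 ± 216 and 1.08 ± 2.16 CPM; log2 fold change 7.44 ± 3.07, SE). Apoe was not called by edgeR (adjusted p = 0.337, and 0.162 at a log2 fold change of 13.60 without spleen replicate 4) and was called by DESeq2 (adjusted p = 0.0271). The 12 macrophage markers summed to 0, 92.8, 0 and 52.3 CPM in skin replicates 1 to 4 and to 0 to 40.6 CPM in spleen, with 8 of the 12, among them Csf1r, Adgre1 and Mertk, at 0 throughout. The 8 fibroblast markers summed to 168, 18.6, 33.2 and 0 CPM in skin and to 0 in spleen, and the keratinocyte sums are given with Fabp5. The 11 Langerhans and dendritic cell markers summed to 228.3, 429.5, 362.2 and 451.1 CPM in skin replicates 1 to 4 and to 21.7 to 429.1 CPM in spleen. Of these markers, 5 had a higher mean in skin and 2 a lower one. Xcr1 alone stood wholly above spleen and was not called (edgeR adjusted p = 0.721), and Cd207 was at 0 throughout. The part of macrophage, fibroblast, dendritic cell or keratinocyte RNA in the Apoe level was not tested.

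The wider pathway was read from 7 lists of 145 other lipid genes, of which 112 had a count and 77 were tested. Of the 77, 2 were higher in skin and 2 lower, where 1.85% and 3.58% of all genes tested were called, and the median log2 fold change was 0.19. Elovl5, which elongates polyunsaturated fatty acids, stood at 620, 742, 963 and 1645 CPM in skin, against 28.6, 118, 178 and 103 CPM in spleen. Every skin library was more than 3 times as high as any spleen library (992 ± 457 and 107 ± 61.5 CPM; log2 fold change 3.21 ± 0.57, SE, with an adjusted p of 0.026 by edgeR). Its call was lost without skin replicate 2 or 3 or spleen replicate 2 or 4 (edgeR adjusted p = 0.0515, 0.061, 0.0891 and 0.09), while the log2 fold change stayed between 2.82 and 3.58 in all 19 alternative fits. Mcat, which loads malonyl groups for mitochondrial fatty acid synthesis and is on the same list of 20, was at 0 in all skin libraries, against 57.0, 132, 53.3 and 16.1 CPM in spleen (at least 167-fold lower in these counts; edgeR adjusted p = 0.0486). The list had 1 higher, 1 lower and 7 not passing of 9 tested, with a median log2 fold change of 0.54.

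In the list of 18 cholesterol synthesis enzymes, 1 was higher, 0 were lower and 12 did not pass of 13 tested, with a median log2 fold change of 1.25. Sc5d, the desaturase of a late step, stood at 485, 306, 355 and 476 CPM in skin, against 53.6, 142, 94.1 and 161 CPM in spleen. The 4 skin values lay above the 4 spleen values (405 ± 89.2 and 113 ± 48.4 CPM; log2 fold change 1.85 ± 0.43, SE, with an adjusted p of 0.0473 by edgeR). Cyp51, the lanosterol demethylase, stood at 0, 132, 374 and 364 CPM in skin, against 0, 0, 96.8 and 15.0 CPM in spleen. Pmvk, the phosphomevalonate kinase, stood at 158, 0, 97.1 and 66.1 CPM in skin, against 0, 0, 16.4 and 29.6 CPM in spleen. Each of these 2 had a skin library at 0 and was not called (edgeR adjusted p = 0.938 and 0.981). Keratinocyte markers had counts in every skin library, as given for Fabp5. The part of such RNA in the levels of Sc5d, Elovl5 and the other lipid genes that stood higher in skin was not tested. In the list of 21 genes of SREBP processing, uptake and sterol transport, 0 were higher, 1 was lower and 11 did not pass of 12 tested, with a median log2 fold change of -0.15. Scap, which escorts SREBPs to the Golgi, was at 0 in all skin libraries, against 46.1, 168, 30.6 and 59.5 CPM in spleen (at least 197-fold lower in these counts; edgeR adjusted p = 0.0473). The bounds for Scap and Mcat cover the counts and not the cells. The shares of values at 0 given above are for a single library against the others of its tissue. They do not give the rate of zeros in every skin library. Summed levels of erythroid and B cell markers also stood lower in every skin library than in any spleen library. The 6 erythroid markers, 3 of them detected, summed to at most 0.424 CPM in a skin library and to 111 to 228 CPM in a spleen library, with the globin gene Hba-a1 called lower (edgeR adjusted p = 0.0473). The 7 B cell markers, 5 of them detected, summed to 0 in every skin library and to 31.5 to 166 CPM in spleen, with Pax5 at 0 throughout. Their part in the lower levels of Scap and Mcat was not tested. The calls of Sc5d, Scap and Mcat were lost in each of the 8 fits without 1 library (adjusted p up to 0.288, 0.355 and 0.355 over the alternatives). Soat2, which esterifies cholesterol, stood at 2.12, 0.33, 0.681 and 2.40 CPM in skin, against 90.7, 114, 110 and 98.4 CPM in spleen. Its 4 spleen values lay close together and far above skin (1.38 ± 1.03 and 103 ± 10.7 CPM; log2 fold change -6.21 ± 1.57, SE), just outside the threshold (edgeR adjusted p = 0.0536). DESeq2, limma-voom and 2 stricter filters called it lower. Nr1h2, which encodes LXR beta, stood at 215, 175, 340 and 191 CPM in skin, against 147, 70.4, 112 and 104 CPM in spleen, without overlap and not called (edgeR adjusted p = 0.445).

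**Figure D4:**
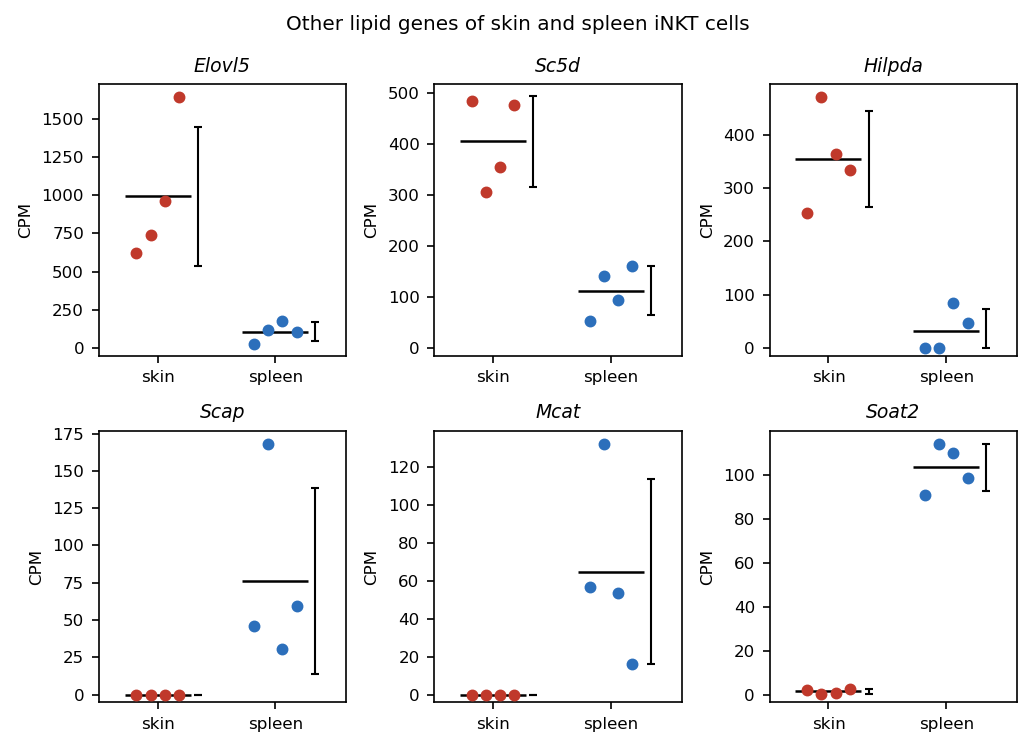
CPM (y axis, linear, from 0) of 6 other lipid genes in skin (red, left) and spleen (blue, right) libraries, with 1 point per library, the mean as a line and the SD as a bar beside it, drawn down to 0 where it would pass below. Elovl5 and Sc5d were called higher in skin, Scap and Mcat lower, and Hilpda (253 to 470 CPM in skin, 0 to 83.8 CPM in spleen) and Soat2 were not called.

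In the remaining lists edgeR called no gene. Of 26 genes of triglyceride synthesis, droplets and lipolysis, 10 were tested (median log2 fold change 0.82). Hilpda, a droplet protein that inhibits lipolysis and is listed under an older symbol, stood at 253, 470, 363 and 334 CPM in skin, against 0, 0, 83.8 and 46.2 CPM in spleen. It did not overlap, with spleen replicates 1 and 2 at 0 as for Fabp5 and Srebf2 (355 ± 90.0 and 32.5 ± 40.6 CPM; log2 fold change 3.45 ± 1.93, SE, with an adjusted p of 0.633 by edgeR). Agpat3, an acyltransferase of phospholipid synthesis, stood at 0, 23.6, 0 and 0 CPM in skin, against 64.6, 137, 235 and 156 CPM in spleen. All 4 skin libraries lay below the spleen libraries, and its mean was 25.1-fold lower in skin without an edgeR call (adjusted p = 0.613). It was called lower by limma-voom (adjusted p = 0.0228) and by edgeR without skin replicate 2, the skin library with counts (adjusted p = 0.0449). Of 26 oxidation genes 18 were tested (median log2 fold change 0.15), led by Hadhb, the beta subunit of the trifunctional protein, at 699, 141, 751 and 192 CPM in skin, against 153, 71.4, 246 and 299 CPM in spleen (edgeR adjusted p = 0.606). Next was Acads, the short-chain dehydrogenase, with a mean of 27.2 ± 23.2 CPM in skin libraries and 2.09 ± 2.89 CPM in those of spleen (edgeR adjusted p = 0.828). Of 21 transport and activation genes 9 were tested (median log2 fold change -0.28). The thioesterase Acot7 averaged 194 ± 124 CPM in skin libraries and 302 ± 77.4 CPM in those of spleen, and the Golgi protein Acbd3 averaged 122 ± 134 and 20.6 ± 36.9 CPM (edgeR adjusted p = 0.939 and 0.978). Of 15 receptors and coregulators 7 were tested (median log2 fold change -0.34), Nr1h2 among them, and Rxrb, a retinoid X receptor, averaged 29.6 ± 34.2 CPM in skin libraries and 67.7 ± 44.2 CPM in those of spleen (edgeR adjusted p = 0.998).

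**Figure D5:**
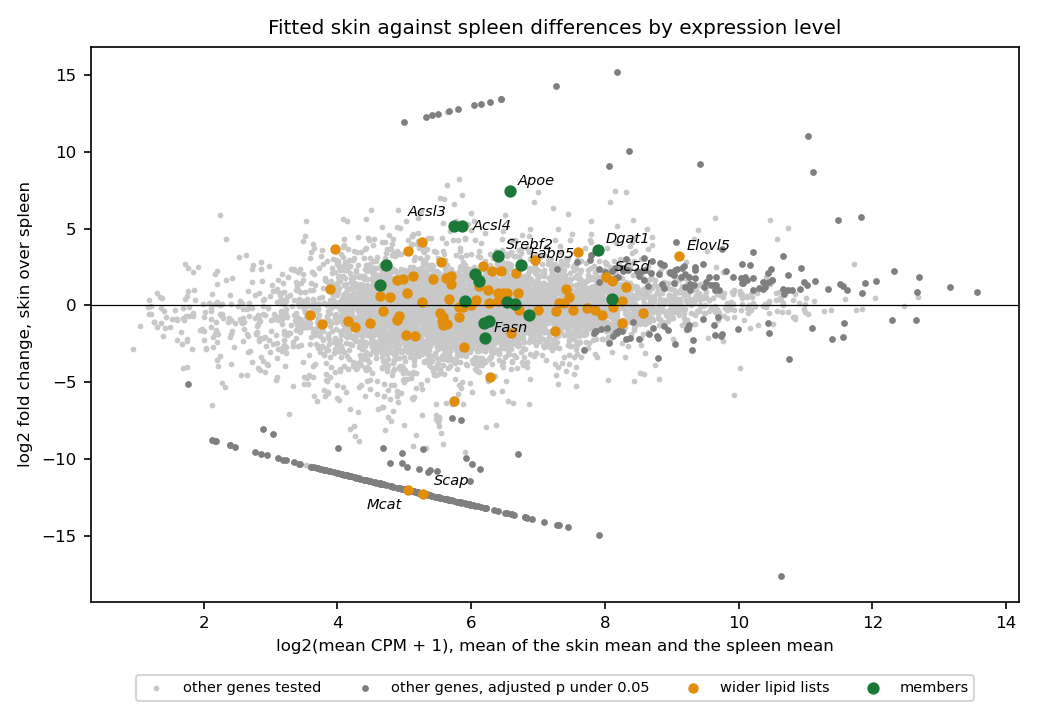
Fitted log2 fold change, skin over spleen (y axis), against log2(mean CPM + 1) (x axis) for the 6920 genes tested, with called genes in dark grey, the wider lipid lists in orange and the 18 tested lipid genes in green. The 2 slanting rows of points are genes at 0 in every library of 1 tissue, Scap and Mcat among the lower ones, and the green points reach from -2.13 for Fasn to 7.44 for Apoe without passing the test.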

How the data were processed

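RNA of 8 libraries was measured, 4 of skin and 4 of spleen iNKT cells. Per the labels' protocols, cDNA was made with the SMART-Seq v4 ultra-low-input kit, which does not mark the strand, and read as 75 bp pairs on a NextSeq 500 machine. The authors deposited expected counts for each gene, estimated with RSEM per the submitters' processing notes, which also name FastQC, DESeq2 1.16.1 and the build mm9 without a role. The sources used here do not name the aligner or annotation. Reads of paralogs and overlapping genes cannot be told apart with certainty.

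Expected counts were rounded to whole numbers. Genes were filtered with filterByExpr (6920 kept of 22549), scaled by TMM and tested with edgeR 4.0.16 (quasi-likelihood, robust, tissue as the only term, 6 residual degrees of freedom, R 4.3.3), with Benjamini-Hochberg adjustment over all genes tested. The steps were run on simulated data, where a pass was required only at a spread between libraries far below that of these data. That check does not give the power at the spread seen here. Alternatives were DESeq2 1.42.0, limma 3.58.1 (voom with quality weights), other scalings and filters, a replicate block and each library left out. The common dispersion was 2.94. No pair of libraries agreed within sampling noise (chi-square per degree of freedom at least 112). The lipid genes and all lists were chosen with earlier results of these data known. All 31 lipid genes are named. Of each wider list up to 3 called genes in each direction are named and, where fewer than 2 were called, up to 2 others by adjusted p. Promoter stretches come from RefSeq (GRCm38.p6); the SRE-1 core replaced a longer form searched first with a mismatch allowed, which matched Srebf2 and Acsl1 but not Apoe. Floors of 3 counts cover counting error only.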

Additional observations from a re-analysis of the deposited data

Results flagged for a closer look

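In 16 of 76 sets of 4 libraries, over 46 lipid genes, the highest library stood far from the other 3 of its tissue. Of these, 8 sets were in skin and 8 in spleen. The cut used flags about 1 in 20 sets of normally distributed values, a rate that does not hold for counts with many zeros. Many of the flagged sets had 0 in the other libraries, so that a single detected value was enough. Spleen replicate 4, the library with the most genes detected, stood out in 5 genes: Acsl1 (1.19 CPM), Acsl3 (11.3 CPM), Acsl4 (11.9 CPM), Apoe (4.31 CPM) and Acbd3 (76.0 CPM). Spleen replicate 3 stood out in 3 genes: Acaca (14.5 CPM), Sqle (28.4 CPM) and Cyp51 (96.8 CPM).

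Skin replicate 3 stood out for Acsl1 (94.8 CPM), Scd1 (0.908 CPM) and Dgat2 (60.3 CPM). Skin replicate 1 stood out for Idi1 (260.4 CPM, with 65.5 CPM next) and Cpt1a (42.7 CPM). Skin replicate 4 stood out for Lpl (0.141 CPM, a single count) and Acaca (41.5 CPM), and skin replicate 2 for Agpat3 (23.6 CPM).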

How the results depend on the processing

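Over 33 lipid genes and the alternatives, 545 of 609 values kept their direction and side of the threshold, 37 lost and 11 gained a call, and 16 turned sign; the causes were not tested. Sign turned only in genes that were not called. By limma-voom the log2 fold change was -3.90 for Plin2, -4.11 for Lipa, -2.63 for Acadvl and -1.35 for Abcg1, and with the replicate block -0.31 for Plin2, -4.52 for Lipa and -0.49 for Acadvl. Leaving out 1 library, it ran from -0.57 to 0.83 for Plin2, from -0.43 to 0.61 for Lipa, from -0.15 to 0.23 for Acadl and from -0.44 to 0.75 for Acadvl. It moved by over 1.5 times in 14 of the 18 tested lipid genes, and not in Fabp5, Insig1, Srebf2 or Dgat1. It reached -3.95 for Fasn (without skin replicate 4), -1.41 for Scd2 and -2.42 for Srebf1 (without skin replicate 3), -0.60 for Hadha (without spleen replicate 2) and 0.78 for Abcg1 (without skin replicate 2). Calls among all genes, higher and then lower in skin, were 295 and 447 by DESeq2, 207 and 500 by limma-voom, and 56 and 48 without the 50 most abundant genes. Lower calls were 48 with no filter and 42 among genes detected in 3 libraries of each tissue, a filter chosen after seeing the data. Of the 31 lipid genes DESeq2 called 3 higher and limma-voom 2. Of the wider lipid genes, limma-voom called 4 lower and the added filter 1. With no filter and without the 50 most abundant genes, 1 was higher and 0 were lower. Deviations of same-numbered libraries from the mean of their tissue were nearly uncorrelated (correlations 0.00175 to 0.0105). With so few libraries and many values at 0, this cannot tell whether the numbers pair them. The replicate block gave 36 higher and 14 lower calls over all genes, and 1 and 0 among the wider lipid genes. Leaving out 1 library gave 47 to 102 higher and 17 to 111 lower calls over all genes, 0 to 1 of each among the wider lipid genes and 0 in either direction among the 31. The median over all genes was -0.29 under TMM, -0.23 under RLE and -0.25 under upper-quartile scaling. Library totals overlapped between the tissues, while values of 0 and the spread between libraries limited what single genes could show.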
